A study of Mus musculus with 6 samples.

Results

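The genes described here encode the aminoacyl-tRNA synthetases, and they were taken by symbol from the table of lung endothelial transcripts. All 36 listed symbols were found among 23345 genes, 20 for enzymes of the cytosol and 16, with names ending in 2, for enzymes of the mitochondrion. All 36 also passed the filter on low values, a mean of at least 10 normalized counts. Endothelial cells, which line blood and lymph vessels, were taken from lungs of C57BL/6JOlaHsd mice. Of these, mice 1, 3 and 4 ate a normal diet (ND) and mice 2, 4 and 5 a high-fat diet (HFD), for 3 months per the sample labels. The cells attached to coated plates, were depleted with anti-CD16/CD32 beads, enriched with anti-ICAM-2 beads and plated on collagen I before RNA extraction, in both diets alike. Each library came from 500 cells, and the number 4 names a different mouse in each diet.

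A synthetase joins an amino acid to its matching tRNA, and the ribosome reads the charged tRNA. Cytosolic and mitochondrial translation use separate enzymes for most amino acids, all encoded in the nucleus, while Gars and Kars each encode both forms and Eprs joins the enzymes for glutamate and proline in a single protein. The enzymes fall into class I and class II by the fold of their catalytic domain. In mammals several cytosolic members are bound in a multisynthetase complex, and transcription of many cytosolic members is raised by the factor ATF4 when amino acids run short.

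The libraries held 13.8 to 17.2 M reads in ND and 18.8 to 27.9 M in HFD, so every HFD library was deeper. The 11 endothelial markers summed to 128610 to 165229 normalized counts in ND and 165004 to 195307 in HFD, 8 of them with a log2 fold change (HFD minus ND) above 0, and none was at 0. Among them, Pecam1 was at 17466 to 27793 and Icam2, the antigen of the selection, at 14073 to 25569. Epithelial markers were high in ND 3, where the 9 genes summed to 101513 normalized counts, against 3552 and 7218 in the other ND libraries and 4317 to 17850 in HFD. Macrophage markers, 6 of 12 with a row, summed to 517, 6540 and 803 in ND and to 143 to 376 in HFD. Among these, Fcgr3 was at 0 reads in 4 libraries and Lyz2 in 2. Lymphocyte markers, 5 of 8 with a row, summed to 20.2 to 60.2 in ND and 16.5 to 33.0 in HFD. The 12 mural and fibroblast markers summed to 878 to 10056 in ND and 1058 to 3352 in HFD, and Acta2 was at 0 in 2 libraries. A count of 0 allows up to 3 reads, which are 2.16 to 3.56 normalized counts depending on the library. In bulk RNA, fewer cells of a type and less RNA per cell cannot be told apart.

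The binding motif of ATF4 with C/EBP partners gives a feature of the genes that does not depend on the measured values. RefSeq promoter windows of 300 bases, 250 before and 50 after the start site, were matched for 27 of the 36 members, and the unmatched ones were Cars, Hars, Lars, Nars, Rars, Vars, Wars, Hars2 and Pars2. The core TGATGNAA, sought on both strands, stood in the windows of 5 of 13 cytosolic members (Aars, Gars, Iars, Tars and Yars) and 0 of 14 mitochondrial members, and in 1304 of 32851 windows of all genes, or 3.97%. The matches are descriptions of the letters and not evidence of binding. The stretch from 120 bases before to 30 bases after the start site is shown for these 5 genes, 5′ to 3′ on the gene's strand in GRCm38.p6, because it holds every match in them. Capitals mark the motif or, where it lies on the opposite strand, its reverse complement.
Aars, chr8:111033722-111033871, plus strand: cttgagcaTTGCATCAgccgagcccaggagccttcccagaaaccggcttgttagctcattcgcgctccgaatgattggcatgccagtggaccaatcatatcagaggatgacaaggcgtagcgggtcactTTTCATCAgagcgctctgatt
Gars, chr6:55037881-55038030, plus strand: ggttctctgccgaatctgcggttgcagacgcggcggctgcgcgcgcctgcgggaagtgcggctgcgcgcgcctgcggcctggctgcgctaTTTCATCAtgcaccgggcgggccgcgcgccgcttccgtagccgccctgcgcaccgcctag
Iars, chr13:49682010-49682159, plus strand: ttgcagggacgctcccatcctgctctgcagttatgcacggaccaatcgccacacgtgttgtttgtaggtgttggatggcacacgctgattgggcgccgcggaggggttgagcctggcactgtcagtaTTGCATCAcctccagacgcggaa
Tars, chr15:11399629-11399778, minus strand: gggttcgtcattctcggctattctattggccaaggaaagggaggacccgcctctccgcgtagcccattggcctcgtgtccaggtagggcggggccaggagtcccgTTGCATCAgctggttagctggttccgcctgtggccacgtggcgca
Yars, chr4:129189783-129189932, plus strand: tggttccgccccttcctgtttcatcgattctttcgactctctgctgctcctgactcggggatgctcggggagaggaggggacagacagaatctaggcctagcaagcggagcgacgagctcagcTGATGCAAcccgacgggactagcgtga
Counting the first base at the RefSeq start site as 1, the match began at -15 in Tars, -30 in Gars, 4 in Yars, 8 in Iars, and -112 and 10 in Aars. The GENCODE M21 annotation starts Aars at 111033144 and Yars at 129189760, upstream of the stretches shown, so these matches lie inside the genes annotated there. The matches in Tars, Iars, Yars and the first in Aars are the same letters, in Yars on the other strand, and those in Gars and the second in Aars differ from them at the free position N. The search for the CCAAT box, on both strands, matched 7 of 13 cytosolic and 6 of 14 mitochondrial members, against 37.4% of all windows. The core of the interferon-stimulated response element was found in 1 member, Qars (3.44% of all windows).

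In HFD 15 of 20 cytosolic synthetase transcripts had higher values on the log2 scale, but no member passed the test. Their median log2 fold change was 0.35, and of the 16 mitochondrial members 9 were above and 7 below, with a median of 0.16. Over all 15655 tested genes 52.8% were above 0 and the median was 0.05, and of the 9886 that averaged 100 or more normalized counts, 57.7% were above 0 with a median of 0.13. Without ND 1 the cytosolic count was 12 of 20, and without ND 4 it was 18. With column totals made equal, the median of all genes was −0.06, that of the cytosolic members 0.23 with 14 of 20 above 0, and that of the mitochondrial members 0.05 (8 of 16). The medians moved with single libraries, to 0.20 without ND 1 and 0.74 without HFD 2 for the cytosolic members, and to −0.32 without ND 4 and 0.79 without HFD 4 for the mitochondrial members. By limma 0 members and 0 genes in all passed an adjusted p of 0.05 (0.00%), and the smallest adjusted p of a member was 0.338, for Tars. At an unadjusted p under 0.05 there were 4 members (Tars, Sars, Hars and Fars2), all higher in HFD, where 7.92% of all tested genes passed that level and 5.56% did so as higher in HFD.

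**Figure D1:**
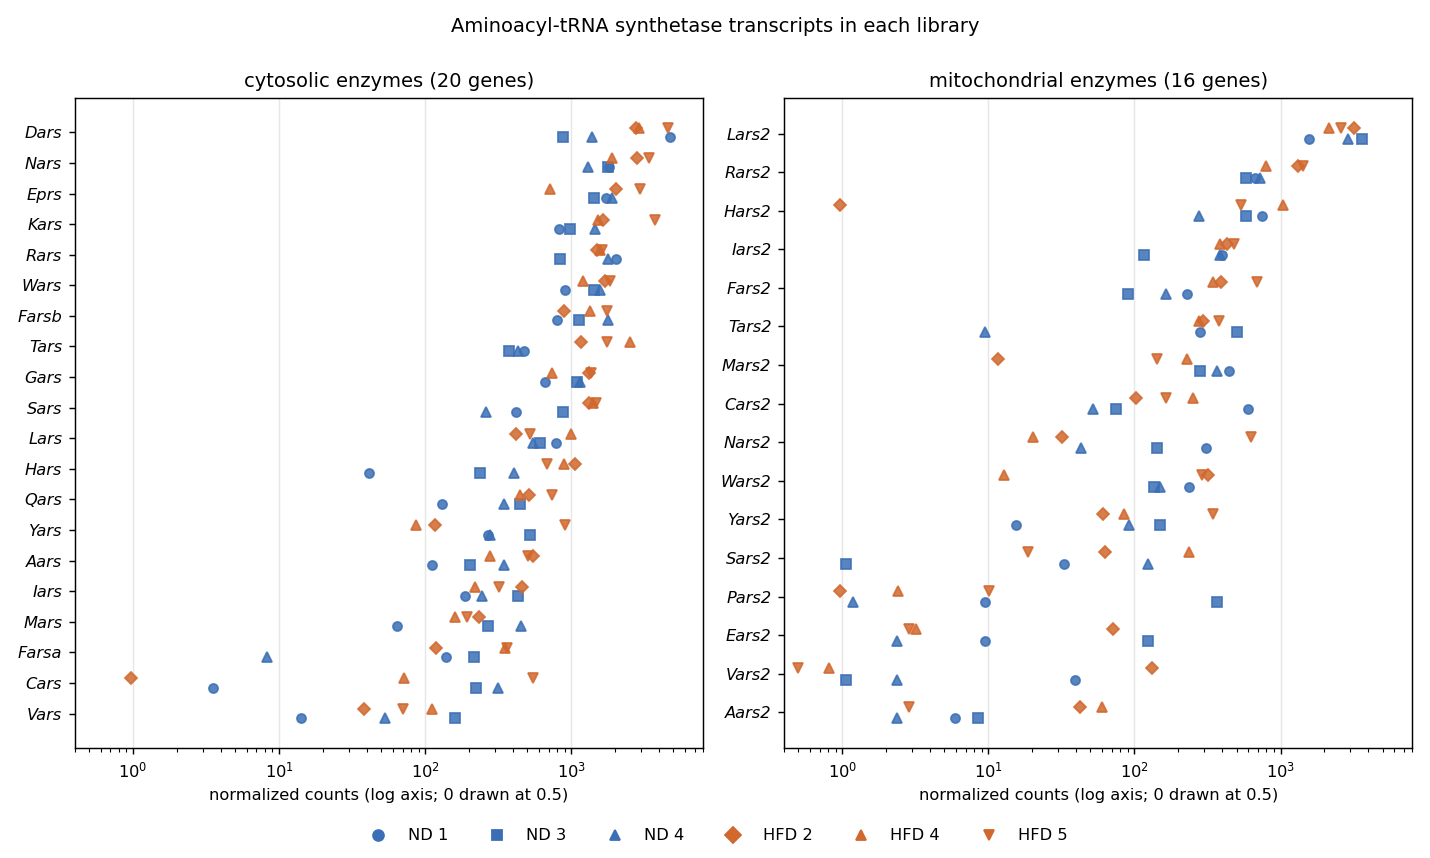
Normalized counts of every member in every library, on a log axis, with ND in blue and HFD in orange and a marker for each mouse number; the single 0 is drawn at 0.5. The HFD points of Tars, Sars and Hars lie to the right of all ND points, while Cars, Ears2, Hars2, Pars2, Sars2 and Vars2 run from 3 reads or fewer in a library to values above 100.

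The diets did not overlap for 9 of the 36 members, 8 higher and 1 lower in HFD, where 14.1% of all tested genes did not overlap, 8.12% higher and 5.93% lower. Those higher were Hars, Kars, Nars, Qars, Sars and Tars of the cytosol and Fars2 and Rars2 of the mitochondrion, and the member lower was Mars2. With equal column totals the count was 5, namely Hars, Sars, Tars, Fars2 and Mars2, against 14.1% of all tested genes again. Depth and the marker sums also differed between the libraries, as given above. Of the 11 endothelial markers, 4 were higher and 1 lower in HFD without overlap. The part of depth and of the marked cell types in the differences between the diets was not tested.

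Tars, which charges tRNA with threonine, had the smallest p of the members. It had 472, 372 and 435 normalized counts in ND 1, ND 3 and ND 4 and 1156, 2540 and 1763 in HFD 2, HFD 4 and HFD 5. The ND libraries lay close together and the lowest HFD library was 2.45-fold above the highest of them. The means were 426 ± 50.7 and 1820 ± 693 (SD, n = 3). The log2 difference was 2.03 ± 0.39 (SE), with a limma p adjusted over all genes of 0.338. The log2 fold change was 1.75 to 2.32 when single libraries were left out. DESeq2, which called 272 genes (1.74% of those tested), called Tars at an adjusted p of 0.000241 and no other member, and edgeR called 0 genes, with Tars at an adjusted p of 0.49. At an unadjusted p under 0.05, edgeR had 1462 genes (9.34%). In data simulated with the estimated dispersion, DESeq2 called 104 of 14752 unchanged genes and 22 of 60 genes with a 4-fold change. limma called 3 and 9 of these and edgeR 2 and 9, so both missed most 4-fold changes there. The changed genes were drawn from all tested genes and not matched to Tars in level or spread. These shares therefore do not apply to Tars itself. Tars lies on the minus strand of chromosome 15 from 11382301 to 11399665 (GRCm38), and its promoter window, shown above, holds the motif at -15.

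Sars, the cytosolic serine enzyme, was the member of next smallest p. Its values were 420, 882 and 263 normalized counts in ND and 1314, 1413 and 1475 in HFD, so the HFD libraries were close to each other while the ND libraries spread 3.36-fold. The means were 522 ± 322 and 1401 ± 81.2 (SD, n = 3), and the log2 fold change of 1.60 ± 0.48 (SE) had a limma adjusted p of 0.524. Sars lies on chromosome 3 from 108424865 to 108445209.

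Hars and Hars2, the cytosolic and mitochondrial histidine enzymes, lie head to head on chromosome 18 (36766528 to 36783205 and 36783008 to 36792562) and share 195 exonic bases, whose reads cannot be assigned without strand. Hars had 41.3, 236 and 404 normalized counts in ND and 1059, 890 and 680 in HFD. Every HFD library was above every ND library, and ND 1 was lowest by far. The log2 difference was 2.44 ± 0.83 (SE), with a limma adjusted p of 0.564, and 1.48 without ND 1. Hars2 had 752, 585 and 276 in ND and 0.971, 1045 and 538 in HFD, so HFD 2, the highest library for Hars, held 1 read of Hars2. The log2 fold change of Hars2 was −2.26 ± 2.21 and turned to 0.60 without HFD 2.

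Kars and Nars, which charge lysine and asparagine, were among the more abundant members and differed less. Kars had 829, 986 and 1445 normalized counts in ND and 1653, 1528 and 3729 in HFD, and HFD 5 stood well above the rest. Its log2 fold change was 1.00 ± 0.43 (SE, limma adjusted p = 0.635), and 0.59 without HFD 5. Nars had 1820, 1773 and 1297 in ND and 2802, 1910 and 3412 in HFD, with a log2 difference of 0.71 ± 0.31 (limma adjusted p = 0.639). The gap between the diets, from the highest ND to the lowest HFD library, was only 1.06-fold for Kars and 1.05-fold for Nars. Qars, the glutamine enzyme, had 130, 444 and 348 in ND and 513, 445 and 742 in HFD, with a gap of 1.00-fold and a log2 fold change of 1.02 ± 0.57, which was 0.49 without ND 1.

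Of the mitochondrial members, Fars2 (phenylalanine) had 229, 90.9 and 164 normalized counts in ND and 393, 344 and 690 in HFD. All HFD libraries lay above all ND libraries, with a log2 fold change of 1.58 ± 0.55 (SE, limma adjusted p = 0.564). Other genes on the opposite strand, Nrn1 and Lyrm4, overlap 10.7% of its exonic bases. Rars2 (arginine) had 670, 585 and 729 in ND and 1326, 795 and 1431 in HFD, which differed by 0.80 ± 0.36 on the log2 scale (limma adjusted p = 0.639) with a gap between the diets of 1.09-fold. Mars2 (methionine) went the other way, with 443, 279 and 369 in ND and 11.7, 229 and 143 in HFD. HFD 2 was far below the rest, and the log2 fold change of −2.26 ± 1.08 (adjusted p = 0.650) was −0.98 without that library. Fars2 lies on chromosome 13 from 36117412 to 36726280, Rars2 on chromosome 4 from 34614957 to 34660167 and Mars2 on chromosome 1 from 55237177 to 55248470.

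**Figure D2:**
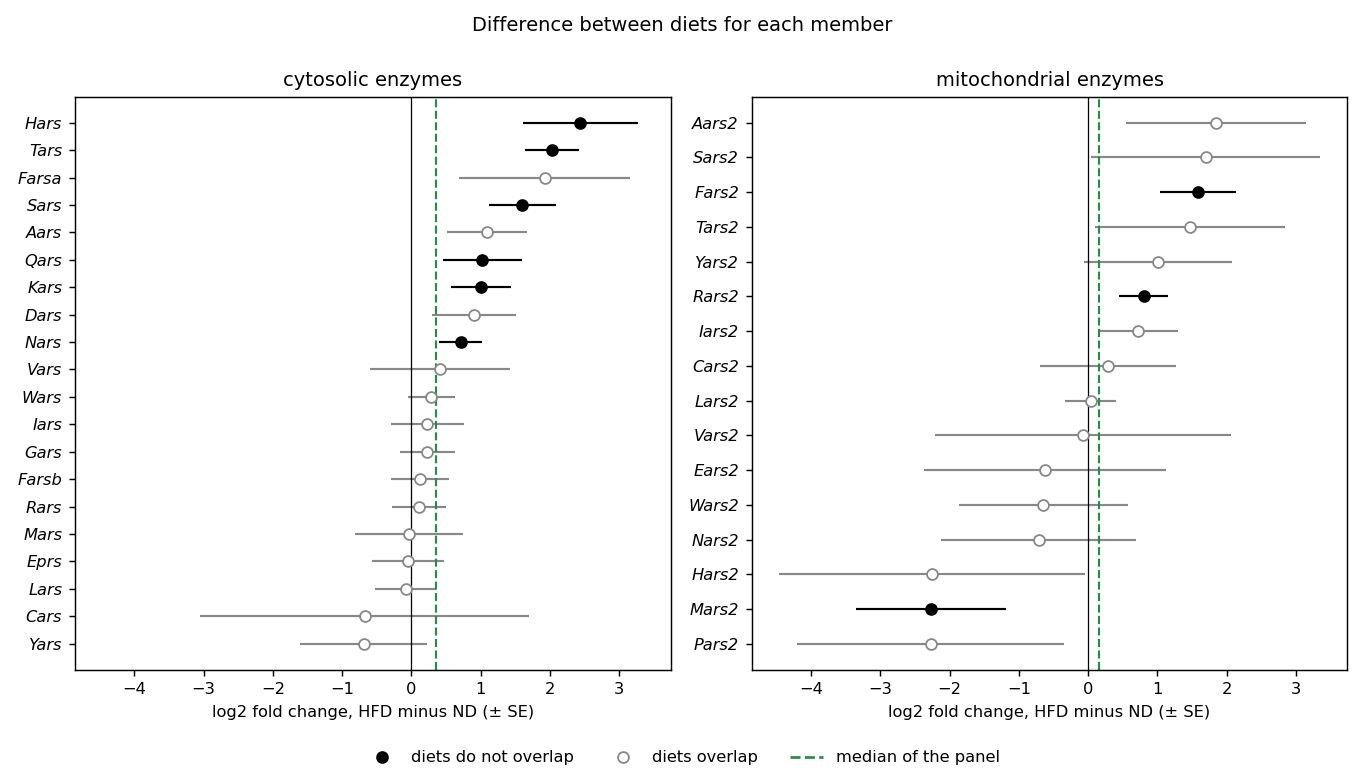
Log2 fold change of each member, HFD minus ND on the log2(normalized count + 1) scale, with its SE from limma; filled points are members whose diets do not overlap, and the dashed line is the median of the panel, 0.35 for cytosolic and 0.16 for mitochondrial enzymes. The SE bars of the mitochondrial members are wider in the main, and 0 of the 36 members passed the test.

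The remaining 13 cytosolic members other than Cars differed by 0.41 or less on the log2 scale in either direction, except 4. Aars (alanine) had a log2 fold change of 1.09 ± 0.58, Farsa 1.92 ± 1.23, Dars (aspartate) 0.90 ± 0.61 and Yars (tyrosine) −0.69 ± 0.92, all with overlapping diets. Without single libraries they ran from 0.68 (without ND 1) to 1.49 for Aars, from 0.39 (without ND 3) to 1.59 (without ND 1) for Dars and from −1.74 (without HFD 5) to −0.055 (without HFD 4) for Yars. Farsa and Farsb encode the α and β subunits of the cytosolic phenylalanine enzyme. Farsb had 803 to 1788 normalized counts and a log2 fold change of 0.12 ± 0.42, whereas Farsa had 139, 215 and 8.32 in ND and 118, 353 and 361 in HFD, and its log2 fold change was 0.51 without ND 4. Wars, the tryptophan enzyme, which is inducible by interferon-γ in human cells, had 901, 1424 and 1585 in ND and 1692, 1193 and 1838 in HFD, and its log2 difference was 0.29 ± 0.34. Gars and Iars had 0.23 each, Vars 0.41, Rars 0.11, Mars −0.03, Eprs −0.05 and Lars −0.09. Rars turned to −0.010 under equal totals. Reads of 3 of these genes may be shared, since Aars has 14.3% of its exonic bases in common with Exosc6, Farsb has 9.47% with Sgpp2, and Iars matches the pseudogene Gm4849 at 96.0% identity over 1656 bases. Of the 5 genes with the motif shown above, Tars was without overlap, and Aars, Gars, Iars and Yars overlapped, with log2 fold changes of −0.69 to 1.09. Over all tested genes 14.1% did not overlap.

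The members were also counted by enzyme class. Class II members, among them Tars, Sars, Hars, Kars, Nars and Fars2, were above 0 in 14 of 17 cases with a median log2 fold change of 1.09, and 6 did not overlap, all higher, where 52.8% of all tested genes were above 0, 14.1% did not overlap and 8.12% did so as higher. Class I members were above 0 in 10 of 19 cases with a median of 0.04, and 3 did not overlap, Qars and Rars2 higher and Mars2 lower. Eprs, whose glutamate part belongs to class I and whose proline part belongs to class II, was counted in class I only. Under equal column totals, 4 class II members (Hars, Sars, Tars, Fars2) and 1 class I member (Mars2) did not overlap. The difference between the classes was not tested. The 8 enzymes of the multisynthetase complex, Dars, Eprs, Iars, Kars, Lars, Mars, Qars and Rars, had a median of 0.17 with 5 above 0. The scaffold proteins of that complex overlapped between the diets, with log2 fold changes of −0.12 ± 0.39 for Aimp1, 0.74 ± 0.60 for Aimp2 and 0.69 ± 0.50 for Eef1e1.

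Summed over the 20 cytosolic genes, the libraries had 16109, 14144 and 16014 normalized counts in ND and 20626, 19472 and 29353 in HFD, without overlap. The means were 15422 ± 1108 and 23150 ± 5402 (SD, n = 3). The mitochondrial sum was 5591, 6794 and 5306 in ND and 6479, 5899 and 7709 in HFD, which overlapped. The ratio of the mitochondrial to the cytosolic sum was 0.347, 0.480 and 0.331 in ND and 0.314, 0.303 and 0.263 in HFD, lower in every HFD library. The mean log2 ratio differed by −0.38, and by −0.21 without ND 3, the library with the highest ratio and the highest epithelial markers. The most abundant members weigh most in such sums, namely Dars, Nars, Eprs and Kars of the cytosol and Lars2 of the mitochondrion. Lars2 alone had 1562, 3634 and 2906 normalized counts in ND and 3198, 2149 and 2584 in HFD, highest in ND 3. The ratio thus leans on Lars2 and does not describe the mitochondrial members in general. No p is given because the members were chosen with results known.

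Levels between genes were compared as normalized counts per kilobase of annotated exon (GENCODE M21). Cytosolic members had a median of 154 per kilobase, from 13.3 for Vars to 661 for Dars, and mitochondrial members a median of 30.3, from 4.27 for Aars2 to 333 for Rars2. Dars was followed by Nars at 498, Farsb at 491, Rars at 482 and Wars at 417, neighbours that did not differ beyond their spread between libraries. With the longest annotated transcript as the length, Dars was still highest of the cytosolic members, at 1324. Nars at 790, Rars at 738, Kars at 701 and Farsb at 632 came next. Of the mitochondrial members Lars2 was then highest, at 686, and Rars2 was at 494. Dars itself had 4706, 880 and 1390 normalized counts in ND and 2779, 2907 and 4619 in HFD, so its ND libraries spread 5.35-fold and covered the HFD values. Dars lies on chromosome 1 from 128363707 to 128417368.

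At the other end of the scale, 12 of 16 mitochondrial members but only 4 of 20 cytosolic members were below 50 per kilobase, and with the longest annotated transcript as the length 8 mitochondrial members and 1 cytosolic member (Vars) were. Vars (valine) had 14.2, 160 and 53.5 normalized counts in ND and 37.9, 111 and 70.6 in HFD. Cars (cysteine) had 3.54, 222 and 314 in ND and 0.971, 71.7 and 546 in HFD, so a library of each diet held 3 reads or fewer. Aars2 had 5.91, 8.55 and 2.38 in ND and 42.7, 59.6 and 2.88 in HFD, where HFD 5 lay among the ND values, and its log2 fold change of 1.84 ± 1.30 was 3.09 without HFD 5, 1.34 without HFD 2 and 1.10 without HFD 4. Vars2 had 39.0, 1.07 and 2.38 in ND and 132, 0.805 and 0 in HFD, the 0 allowing up to 2.16 normalized counts, and the values of the diets were intermixed.

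For most amino acids the cytosolic gene was the more abundant. In 15 of 17 pairs of a cytosolic and a mitochondrial gene for the same amino acid, which count Fars2 and Eprs in 2 pairs each, the mean level per kilobase was lower for the mitochondrial member. The ratio of mitochondrial to cytosolic level was 0.06 for Nars2 against Nars, 0.08 for Wars2 against Wars and 0.13 for Sars2 against Sars, each lower in 6 of 6 libraries. In other pairs the order changed between libraries, and Hars2, Iars2, Rars2 and Vars2 were each above the cytosolic gene in 2 of 6. Mars2, Tars2, Yars2 and Pars2 were so in 1 of 6. In ND the mean of Hars2, at 126 per kilobase, was above that of Hars, at 92.8. With the longest transcript the mean of the mitochondrial member was lower in 14 pairs. Cars2 and Cars were close, with a ratio of 0.98 and Cars2 higher in 3 of 6 libraries, and with the longest transcript Cars2 was the higher, at 66.0 against 59.9. Exceptions were Farsa, at 43.9 against 55.4 per kilobase for Fars2, and leucine. Lars2 had 1562, 3634 and 2906 normalized counts in ND and 3198, 2149 and 2584 in HFD, and per kilobase its mean was 241 against 121 for Lars, above it in 5 of 6 libraries. With the longest annotated transcript as the length, Lars2 was at 686 and Lars at 163 per kilobase. The log2 fold change of Lars2 was 0.04 ± 0.37 and turned to −0.02 under TMM scaling and −0.08 under equal totals.

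**Figure D3:**
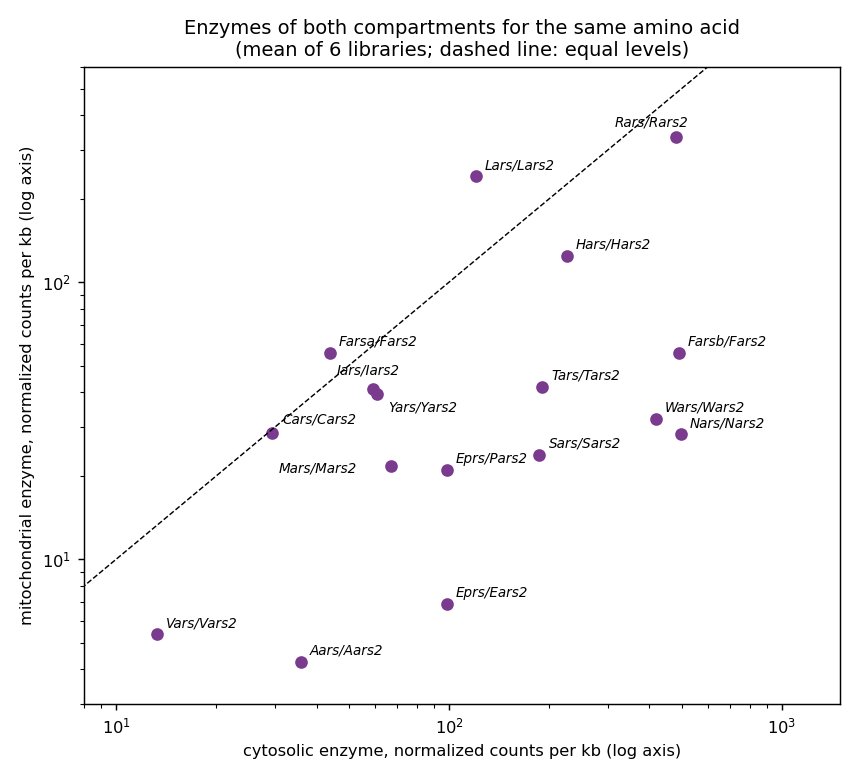
Mean level over 6 libraries of the cytosolic (x axis) and mitochondrial (y axis) gene for the same amino acid, in normalized counts per kilobase of exon on log axes; Farsa and Farsb are both set against Fars2, and Eprs against Ears2 and Pars2. Points under the dashed line have the cytosolic gene higher, and Lars2 against Lars, at 241 and 121, lies farthest above it.

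Libraries of the same diet differed more for the mitochondrial members. The SD within a diet had a median of 1.73 log2 units over the 16 mitochondrial and 0.66 over the 20 cytosolic members, against 0.81 over all tested genes. Within a diet, the highest library exceeded the lowest by over 10-fold for 11 mitochondrial and 4 cytosolic members. At least 1 library with 3 reads or fewer was found for 6 of 16 mitochondrial members (Aars2, Ears2, Hars2, Pars2, Sars2, Vars2) and 1 of 20 cytosolic members (Cars), against 3594 of all 15655 tested genes. Over all tested genes the median SD was highest, at 1.93, for a log2 mean of 5 to 6. It was 1.82 at 6 to 7 and 0.46 at 10 to 11, and lower again, at 1.63 and 1.10, at 4 to 5 and 3 to 4. Set against genes of like level, 11 of 16 mitochondrial and 11 of 20 cytosolic members were above the median SD.

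Several members were nearly absent in some libraries and clearly present in others, and some of them shared the library concerned. Cars and Hars2 were both at 1 read in HFD 2, where Mars2 was also lowest. Pars2 (proline) had 366 normalized counts in ND 3 and 0.971 to 10.1 in the other libraries. Sars2 had 1.07 in ND 3 and 18.7 to 235 elsewhere, and Tars2 9.50 in ND 4 and 278 to 502 elsewhere. Wars2 had 12.9 in HFD 4 and 137 to 318 elsewhere, with a log2 fold change of −0.65 ± 1.22 that was 0.84 without HFD 4. Ears2 (glutamate) had 123 in ND 3, 71.9 in HFD 2 and 2.38 to 9.45 in the rest, and Nars2 had 20.1 to 631. Pars2 and Ears2 were thus highest, and Sars2 lowest, in ND 3, the library with epithelial markers summing to 101513 and macrophage markers to 6540, whose part was not tested. ND 1 was the lowest ND library for 12 of 20 cytosolic members, and HFD 5 the lowest HFD library for 1 of 20. The same counts over all tested genes are not given, so these cannot be read as a trait of the synthetases. The values of Cars2 (52.3 to 595), Yars2 (15.4 to 344) and Iars2 (115 to 479) overlapped between the diets, and Iars2 shares 22.9% of its exonic bases with Rab3gap2 on the opposite strand.

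**Figure D4:**
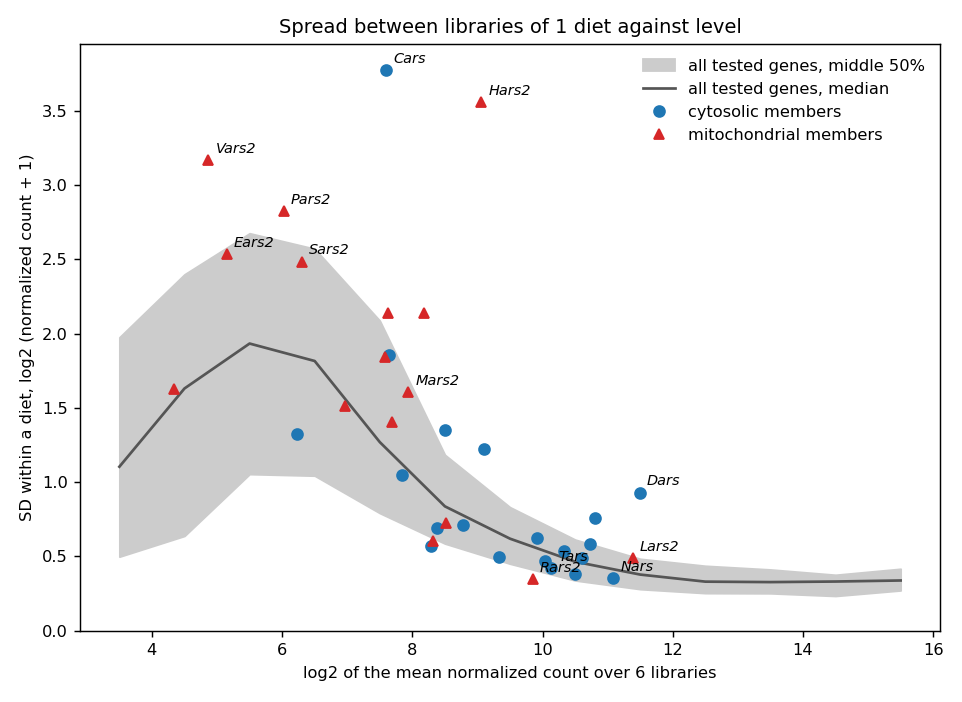
SD between libraries of 1 diet, in log2(normalized count + 1), against the log2 mean over 6 libraries for each member, with the median (line) and the middle 50% (grey) of all tested genes in bins of 1 log2 unit. Cars and Hars2 lie far above genes of like level, with SDs of 3.77 and 3.56, while Tars, Nars and Rars2 lie at or under the line.

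Genes that work beside the synthetases did not pass the test either. Of 12 further genes of tRNA charging and proofreading, 11 had a log2 fold change above 0, with a median of 0.44, and 0 were without overlap. Over all tested genes 14.1% did not overlap, 8.12% higher and 5.93% lower. Those of smallest p were led by Dtd1, which removes D-amino acids from tRNA, at 1.25 ± 0.91, Gatb, a subunit of the amidotransferase that makes glutaminyl-tRNA in the mitochondrion, at 0.95 ± 0.75, followed by Aarsd1 at 1.51 ± 1.33 and Gatc, another subunit, at −0.64 ± 0.56. Of 15 cytosolic translation factors 9 were above 0, with a median of 0.22. The diets did not overlap for 3 (20%, near the 14.1% of all tested genes), Eif4e and Eef1g higher and Eif2s3x lower. Of these, Eif4e, the cap-binding protein, had 2475, 2317 and 3110 normalized counts in ND and 3894, 3837 and 4176 in HFD, and Eif2s3x, a subunit of the initiation factor eIF2, had 1551, 1640 and 1051 in ND and 890, 587 and 730 in HFD. Their log2 fold changes were 0.60 ± 0.22 and −0.94 ± 0.34, each with a limma adjusted p of 0.574. The 10 mitochondrial translation factors had a median of 0.38 with 8 above 0, and 1 was without overlap (10%). Tufm, the mitochondrial elongation factor that brings charged tRNA to the ribosome, was lower without overlap, at 275, 381 and 222 in ND and 193, 122 and 174 in HFD (−0.83 ± 0.48). Ribosomal proteins of the cytosol had a median of −0.38 with 8 of 81 above 0, and those of the mitochondrion 0.03 with 41 of 78, and their difference from the synthetases was not tested.

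The genes of the amino acid response, a list of ATF4, eIF2 kinases upstream of it and genes it is known to control, were divided. Of 26 listed, 23 had a row and 22 were tested, 12 above and 10 below 0, with a median log2 fold change of 0.04 and 0 past the test. Atf4 itself had 4423, 4474 and 3508 normalized counts in ND and 2890, 4605 and 4914 in HFD (−0.03 ± 0.27). The diets did not overlap for 3 genes higher (Ppp1r15a, Slc3a2, Atf5) and 3 lower (Nupr1, Psph, Slc7a11), 6 of 22 where 14.1% of all tested genes did not overlap. Ppp1r15a, a phosphatase subunit that relieves the block of translation by eIF2 phosphorylation, had 2145, 4701 and 3179 in ND and 7494, 12723 and 15331 in HFD, which differed by 1.84 ± 0.38 (limma adjusted p = 0.367). Slc3a2, the heavy chain of amino acid transporters at the cell surface, had 6229, 7249 and 6283 in ND and 10683, 13357 and 21047 in HFD (1.13 ± 0.27, adjusted p = 0.438). Nupr1 had 299, 1625 and 317 in ND and 221, 201 and 87.1 in HFD (−1.76 ± 0.78), with ND 3 far above the rest. Atf5, with a log2 fold change of 2.43 ± 1.16, was near the floor. It had 2, 1 and 4 reads in ND and 5, 25 and 69 in HFD. Its diets were parted only by 4.75 normalized counts in ND 4 and 4.86 in HFD 2. Asns, the asparagine synthetase of metabolism and not a tRNA enzyme, had 7.09, 1178 and 557 in ND and 741, 680 and 910 in HFD, which overlapped.

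**Figure D5:**
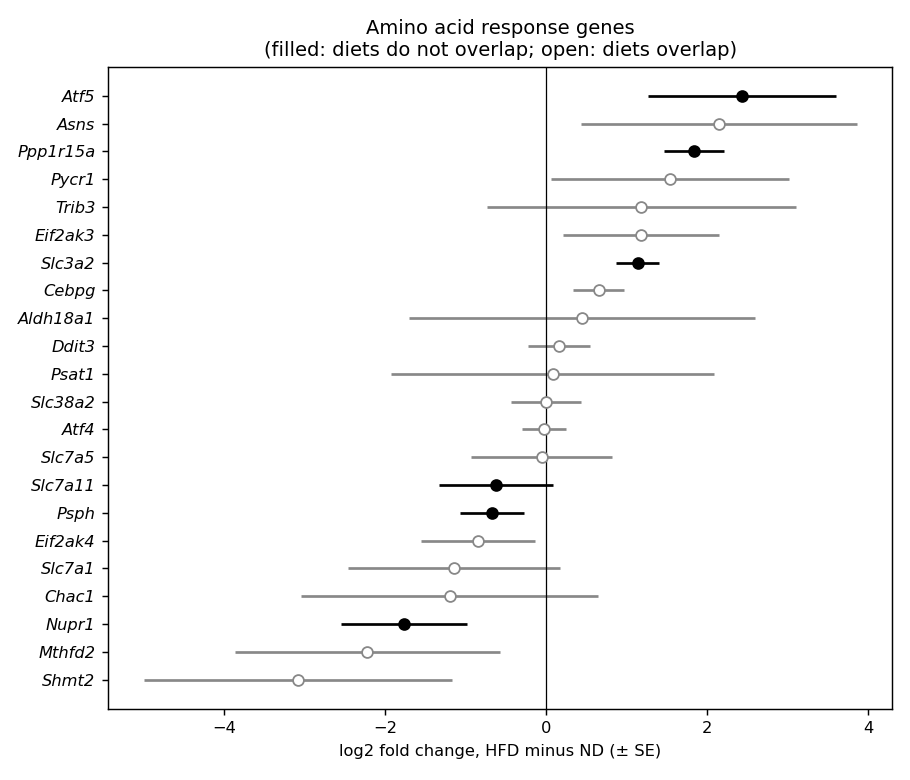
Log2 fold change with its SE, HFD minus ND, for the 22 tested genes of the amino acid response; filled points are genes whose diets do not overlap. The genes lie on both sides of 0, with Ppp1r15a at 1.84 and Slc3a2 at 1.13 having the shortest bars among those above 1.

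The interferon-γ response list was read beside Wars. Of its 16 genes 13 were above 0, with a median log2 fold change of 0.56. The diets did not overlap for 4 of the 16, all higher, where 8.12% of all tested genes were higher without overlap, and 0 passed the test. Those named here are GTPases of the response. Irgm1 had 3058, 3138 and 3122 normalized counts in ND and 5454, 4709 and 5521 in HFD, without overlap (0.75 ± 0.20, limma adjusted p = 0.476). Igtp, at 0.81 ± 0.24, and Gbp2, at 0.77 ± 0.25, did not overlap either. Wars, at 0.29 ± 0.34, overlapped between the diets.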

How the data were processed

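The authors deposited 1 table of 23345 genes by 6 libraries whose values are a normalized signal, gene read counts over a size factor for each library. Dividing each column by its smallest step gave whole reads for 100% of values (tolerance 1e-06). The submitters' processing notes name DESeq2, HTSeq 0.6.1, SAMtools 0.1.19, Bowtie 1.0.0, TopHat2 2.0.10, FastQC 0.11.7, cutadapt and the build GRCm38. Neither annotation nor strand setting of the counting is stated there. Unmatched per-sample columns numbered 0.

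The main test was limma 3.58.1 (R 4.3.3, two-sided, intensity trend, no covariates) on log2 of the normalized count with a pseudocount of 1, in 15655 genes whose mean reached 10, with Benjamini-Hochberg adjustment at 0.05. This scale understates the change of low genes. Recovered reads were tested with edgeR 4.0.16 (quasi-likelihood) and DESeq2 1.42.0. The tests were first run on simulated data. Each library is a separate mouse per the labels.

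Lengths and positions are from GENCODE M21 (GRCm38), promoters from RefSeq (GRCm38.p6). Shared transcript stretches were sought with BLAST 2.17.0 (95% identity, 200 bases). Members and gene lists were chosen with earlier results of these data known. All 36 members are named, and library values are given for members whose diets do not overlap, the 6 of smallest p, and the 2 highest and 2 lowest per kilobase in each compartment. Other lists show up to 4 genes of smallest p and the context genes Icam2, Pecam1 and Atf4; 1 further gene is not reported here. Asns, Eef1g, Psph, Slc7a11 and the library values of other members were chosen after values were seen. PCR reads carry no molecular identifiers, so limits from a count of 0 cover counting error only. Alternatives were other pseudocounts (0.5, 5), minimum means (1, 50, none), TMM scaling, equal column totals, sample quality weights, the count tests and leaving out each library; counts of members above 0 and without overlap under them were added after the data were seen.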

Additional observations from a re-analysis of the deposited data

How the results depend on the processing

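No paired analysis was possible because the diets share only the number 4, which names different mice. All 36 members kept 0 calls under each limma and edgeR alternative. DESeq2 called 272 genes and 1 member, Tars. Members without overlap numbered 5 in place of 9 under equal column totals. Leaving out single libraries gave medians of 0.20 to 0.74 for the cytosolic and −0.32 to 0.79 for the mitochondrial members, and a difference between HFD and ND in the log2 ratio of mitochondrial to cytosolic sums of −0.48 to −0.21. Of 357 other log2 fold changes of members, 330 kept their direction and side of the threshold, 26 turned and 1, Tars under DESeq2 at 2.03, newly passed. Of 216 without 1 library, 183 kept theirs and 33 turned, in 17 members, the cause not tested. Turned values were, under edgeR and DESeq2 in this order, −0.47 and −0.53 for Cars2, 0.069 and 0.062 for Cars, 0.094 and 0.077 for Eprs, −0.10 and −0.11 for Lars2, 0.38 and 0.35 for Nars2, −0.033 and −0.058 for Rars, 1.66 and 1.63 for Vars2, −0.13 and −0.14 for Vars, and 0.19 and 0.17 for Wars2. Under TMM scaling Lars2 was at −0.016, and under equal totals Lars2 was at −0.081 and Rars at −0.010. With sample quality weights Farsb was at −0.055, Lars2 at −0.071, Lars at 0.041 and Vars2 at 0.29, and with a pseudocount of 5 Vars2 was at 0.34. Without 1 library the members that turned ranged from −0.38 to 1.36 for Cars2, −2.63 to 1.54 for Cars, −2.01 to 0.84 for Ears2, −0.48 to 0.54 for Eprs, −0.15 to 0.42 for Farsb, −0.025 to 0.52 for Gars, −3.93 to 0.60 for Hars2 and −0.034 to 0.57 for Iars. The others ranged from −0.32 to 0.29 for Lars2, −0.45 to 0.17 for Lars, −0.84 to 0.56 for Mars, −2.24 to 0.21 for Nars2, −0.29 to 0.35 for Rars, −0.26 to 2.54 for Tars2, −2.28 to 1.25 for Vars2, −0.47 to 1.24 for Vars and −1.42 to 0.84 for Wars2. Aars2, Ears2 and Vars2 have no value at a minimum mean of 50. Per kilobase, 17 of 36 levels moved by more than the SD with the longest transcript as length. Of members that did not turn, Sars2 ranged from 0.037 to 2.99, Yars2 from 0.058 to 1.66, Iars2 from 0.14 to 1.02, Pars2 from −3.88 to −0.18 and Wars from 0.044 to 0.48. A level at 3 reads or fewer is known only to within counting error.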
